A study of Homo sapiens with 8 samples.

Results

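The contractile genes described here are 10 of the 58780 genes in the expression tables of a human foregut differentiation series: the muscle actins ACTA1, ACTA2, ACTC1 and ACTG2, the actin-binding proteins TAGLN and CNN1, the myosin light chain MYL9, the tropomyosins TPM1 and TPM2, and the intermediate filament protein DES. They were taken by gene symbol, and the set was drawn up around ACTA1 because its level was far lower in the last stage (hPFE) than in the stage before it (hAFE), so the genes were chosen by the measured hAFE and hPFE levels of ACTA1, and those levels and that contrast are given as a description with no test. RNA was profiled in H1, an established human embryonic stem cell line, at 4 stages: as undifferentiated cells (hESC), as definitive endoderm (hDE), as anterior foregut (hAFE), and as pharyngeal foregut endoderm, the lining of the embryonic pharynx (hPFE). Each stage had 2 libraries, 8 in all. The labels name no genotype change, and no agent or day for any stage. All groups come from this single line. The titles mark the hESC and hDE libraries as re-analysed, and the hAFE and hPFE libraries carry no such mark.

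Muscle contracts when myosin pulls on actin filaments, and vertebrates have separate actin genes for skeletal muscle (ACTA1), heart (ACTC1), vascular smooth muscle (ACTA2) and enteric smooth muscle (ACTG2) beside the cytoplasmic actins ACTB and ACTG1 that every cell uses. Many of these genes share a regulatory element, the CArG box, which is bound by the serum response factor SRF together with cofactors of the myocardin family. Non-muscle cells can also express them, for instance in stress fibres and in early embryonic tissues, so their RNA alone does not name a cell type.

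The libraries held between 12687161 and 17802900 counts. Mitochondrial genes made up 11.4% to 19.2% of each library, and 7SL RNA made up 3.76% to 11.7%. The 10 genes together took 0.0330% and 0.0355% of the counts in the hESC libraries, 0.275% and 0.254% in hDE, 0.262% and 0.193% in hAFE, and 0.184% and 0.140% in hPFE. All 10 passed the filter on low counts, DES only through its hESC level, and 9 of 10 had a count above 0 in every library. The stage labels were read beside some of their markers. POU5F1, the pluripotency factor also called OCT4, had a mean of 900.1 CPM (counts scaled to library size) in hESC and 18.4, 0.42 and 0.036 CPM in the 3 later stages. CER1, a secreted antagonist made by anterior endoderm, had a mean of 7607 CPM in hDE and stage means of at most 15.4 CPM elsewhere. EPCAM, an epithelial adhesion protein, had stage means between 86.9 and 222 CPM. None of these is specific to hAFE or hPFE. PAX9 had 25.4 and 21.8 CPM in hAFE and 95.7 and 28.6 CPM in hPFE. TBX1 overlapped, with 0.727 and 6.0 CPM in hAFE and 1.21 and 1.95 CPM in hPFE. So did SOX2 (158 and 57.2, then 120 and 95.9 CPM) and FOXA2 (41.2 and 17.7, then 22.9 and 12.8 CPM). Levels below are CPM scaled with TMM factors, and levels are compared between genes only in TPM, which allows for transcript length. Each adjusted p is from the quasi-likelihood test of edgeR, adjusted over 17446 genes and read against a threshold of 0.05. The SE of a log2 fold change was derived from that test's F statistic. Whether replicate libraries were made from separate cultures is not stated in the labels, and p therefore reflects the spread between libraries only, which may be technical. In these bulk samples fewer cells of a type and less RNA per cell cannot be told apart.

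The coding sequences of the actins are close enough that reads could in principle be shared between them. Their last 60 coding bases before the stop codon are shown because they let the 6 genes be compared side by side. They were read from the GENCODE 29 transcripts, run 5′ to 3′, and capitals mark the bases that differ from ACTA1.
ACTA1: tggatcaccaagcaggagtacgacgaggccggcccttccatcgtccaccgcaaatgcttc
ACTC1: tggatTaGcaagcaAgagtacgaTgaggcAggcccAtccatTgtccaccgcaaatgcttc
ACTA2: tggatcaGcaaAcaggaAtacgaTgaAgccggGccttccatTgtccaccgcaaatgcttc
ACTG2: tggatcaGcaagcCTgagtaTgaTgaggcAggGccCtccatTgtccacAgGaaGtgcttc
ACTB: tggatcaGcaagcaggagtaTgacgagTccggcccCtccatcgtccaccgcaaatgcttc
ACTG1: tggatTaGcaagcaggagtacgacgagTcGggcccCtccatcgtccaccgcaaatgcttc
In this stretch ACTB differed from ACTA1 at 4 bases, ACTG1 at 5, ACTC1 and ACTA2 at 7 each, and ACTG2 at 12. Over 1128 aligned coding bases, identity to ACTA1 was 85.8% for ACTB, 85.7% for ACTG1, 85.6% for ACTC1 and 84.6% for both ACTA2 and ACTG2. No stretch of 100 bases in the transcript of any of the 10 genes was found in a transcript of another gene. With stretches of 50 bases, 1.87% of those of ACTA1 were shared, most of them with POTEE, which carries an actin-like part, as were 0.274% of those of ACTC1 and 0.0993% of those of ACTG2. The deposited posterior standard deviation of the count, a measure of how ambiguously reads were assigned, was 0 for all 10 genes in every library, while 6455 of the 33095 genes with any count had one above 0.

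ACTA1 (skeletal muscle alpha-actin, chromosome 1, 229431245 to 229434098, minus strand of hg38) was at its highest in hAFE and far lower in the stage after it. Its level was 0.781 and 0.904 CPM in the hESC libraries, 37.9 and 15.8 CPM in hDE, 135 and 106 CPM in hAFE, and 3.22 and 5.41 CPM in hPFE. No 2 stages overlapped, and the order from high to low was hAFE, hDE, hPFE and hESC. From hESC to hDE ACTA1 rose by 4.97 on the log2 scale (SE 0.517, adjusted p = 0.000377), with 644 counts in the hDE libraries against 29 in hESC. The hAFE mean was 4.49 times the hDE mean. The hAFE mean of 121 ± 20.4 CPM (SD, n = 2) was 28.0 times the hPFE mean of 4.31 ± 1.55 CPM, and the fitted log2 fold change from hAFE to hPFE was -4.81 (SE 0.454), with no test. With any single library left out that value lay between -5.23 and -4.48. The hPFE level was still 5.12 times that of hESC.

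ACTA2 (smooth muscle alpha-actin, chromosome 10, 88935074 to 88991339, minus strand) had a different course. It stood at 2.34 and 1.92 CPM in hESC, 0.623 and 0.579 CPM in hDE, 72.9 and 216 CPM in hAFE, and 126 and 27.1 CPM in hPFE. Both hDE libraries lay below both hESC libraries, but the difference did not pass the test (log2 fold change -1.81, SE 1.23, adjusted p = 0.27); it passed without a count filter (3.94e-06) and with only the 4 libraries compared (0.00287). From hDE to hAFE ACTA2 rose by 7.89 on the log2 scale (SE 1.05, adjusted p = 0.00143), the largest fitted change of the 10 genes in any of the 4 comparisons described. In hPFE it remained above hESC (log2 fold change 5.17, SE 0.862, adjusted p = 0.00276). The hAFE and hPFE libraries overlapped. The replicates were far apart, the second library lower than the first by 2.22 log2 units in hPFE and higher by 1.57 in hAFE, and of 9852 genes with a mean of at least 10 CPM only 0.700% were as far apart in hPFE. ACTA2 overlaps FAS on the opposite strand, and FAS had between 2 and 446 counts per library. STAMBPL1, also on the opposite strand, had 142 and 128 counts in hESC and 9 and 17 in hDE, more than the 73 counts of ACTA2 over both hESC libraries, and like ACTA2 it was lower in hDE. FAS had 446 counts in the second hPFE library, which held fewer ACTA2 reads than the first. The labels describe a strand-specific kit but not the strand setting of the counting, so a share of opposite-strand reads was not tested.

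ACTC1 (cardiac alpha-actin, chromosome 15, 34788095 to 34795726, minus strand) rose once and then showed overlapping levels. It measured 11.2 and 11.5 CPM in hESC, 57.0 and 26.7 CPM in hDE, 63.0 and 51.8 CPM in hAFE, and 66.9 and 43.1 CPM in hPFE. It was higher in hDE than in hESC by 1.88 on the log2 scale (SE 0.364, adjusted p = 0.0053), a call that was lost with limma on log2(TPM + 1) (adjusted p = 0.0529), and higher in hPFE than in hESC by 2.28 (SE 0.366, adjusted p = 0.00237). Between hDE and hAFE no difference passed the test (0.46, SE 0.345, adjusted p = 0.349), except with limma on log2(TPM + 1) (1.40, adjusted p = 0.0159). Its hDE replicates, like those of ACTA1, were unusually far apart: the second library was lower by 1.09 log2 units for ACTC1 and by 1.26 for ACTA1, and 0.396% and 0.264% of the 9852 genes were as far apart in that stage.

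ACTG2 (smooth muscle gamma-actin, chromosome 2, 73892314 to 73919865, plus strand) was the least abundant of the 4 in every stage except hDE, where ACTA2 was lower, by mean TPM, although its libraries overlapped those of ACTA1 in hESC and hPFE. Its level was 0.541 and 0.565 CPM in hESC, 1.87 and 1.88 CPM in hDE, 2.78 and 3.14 CPM in hAFE, and 6.50 and 0.938 CPM in hPFE. The hPFE libraries enclosed those of hAFE and hDE. ACTG2 was higher in hPFE than in hESC by 2.74 on the log2 scale (SE 0.805, adjusted p = 0.0265), but without the first hPFE library the difference was 0.75 (adjusted p = 0.234), and the call was also lost without either hESC library (adjusted p = 0.127 each), with only the 4 libraries compared (0.0541) and with limma on log2(TPM + 1) (0.0804). The difference between hDE and hESC missed the threshold (1.75, SE 0.823, adjusted p = 0.125), and passed without either hPFE library (0.00905 without the first, 0.00662 without the second), without a count filter (0.00832) and with only the 4 libraries compared (0.00301).

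**Figure D1:**
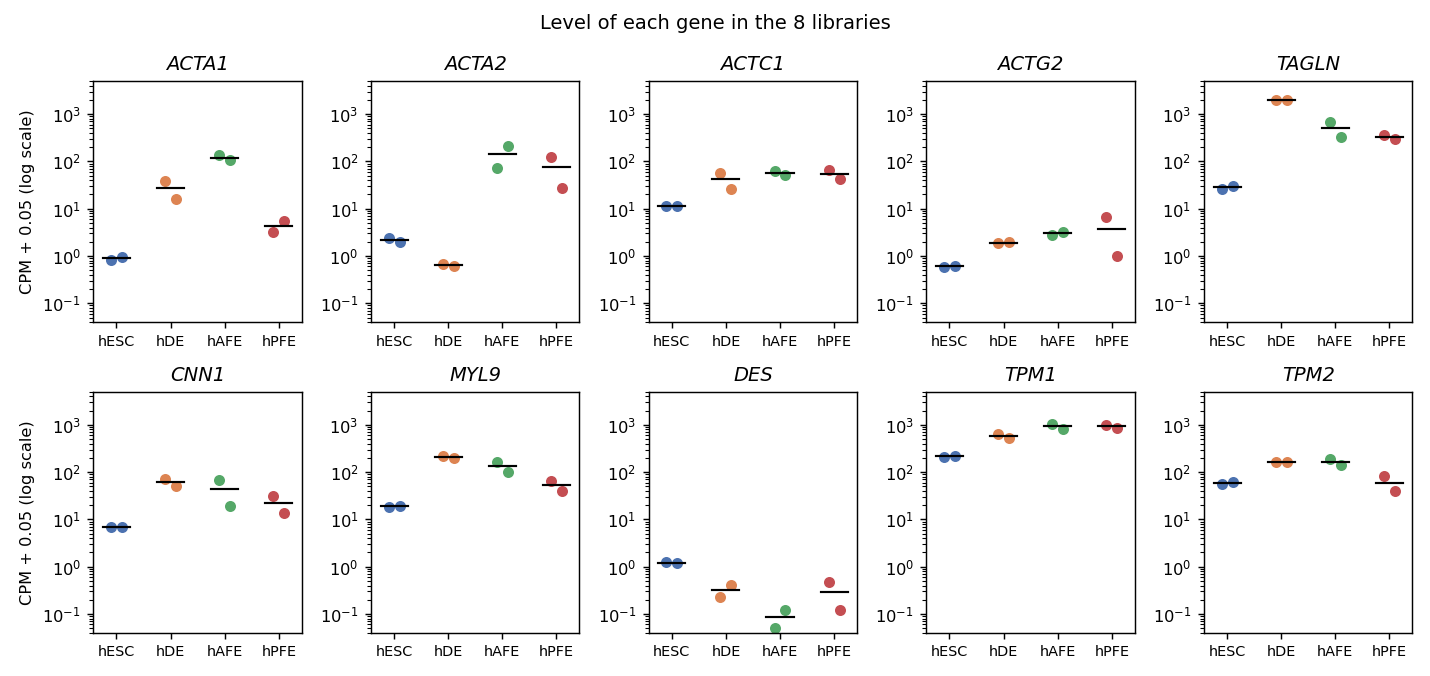
Level of each of the 10 genes in CPM on a log axis, with 1 point per library and the 4 stages from left to right; a small constant was added so that a level of 0 can be drawn. ACTA1 peaks in hAFE at 106 and 135 CPM and lies at 3.22 and 5.41 CPM in hPFE, while TAGLN peaks in hDE and the TPM1 libraries of hAFE and hPFE overlap.

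Set against all 6 actins, the muscle isoforms were a small share of actin RNA at every stage. In TPM they made up 0.625% and 0.660% of the 6-actin sum in hESC, 2.25% and 0.976% in hDE, 6.09% and 11.4% in hAFE, and 7.07% and 2.88% in hPFE. ACTB and ACTG1, the cytoplasmic actins, supplied the rest. Within the 4 muscle actins the leading isoform changed. ACTC1 led in hESC with 72.3% and 71.5% of their TPM and in hDE with 57.4% and 56.9%. ACTA1 took 39.6% and 36.9% in hDE, 47.5% and 26.2% in hAFE, and 1.58% and 6.54% in hPFE. ACTA2 took 0.713% and 1.73% in hDE, but 29.4% and 60.6% in hAFE and 65.8% and 38.8% in hPFE. In both hAFE and hPFE the replicates disagreed on the leading isoform: ACTA1 led the first hAFE library and ACTA2 the second, and ACTA2 led the first hPFE library and ACTC1, with 53.5%, the second.

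**Figure D2:**
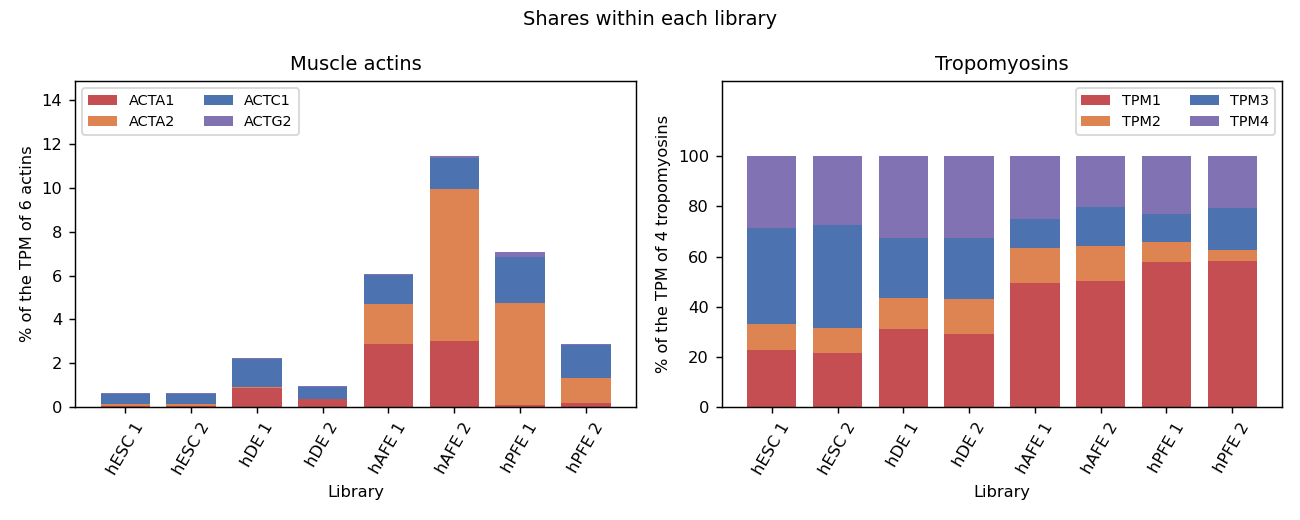
Stacked shares in percent of TPM within gene families, 1 bar per library in stage order; each colour is 1 gene. Among the actins ACTA1 holds 2.89% of the family in the first hAFE library and 0.112% and 0.188% in hPFE, and among the tropomyosins TPM1 grows from 22.9% and 21.5% in hESC to 57.8% and 58.1% in hPFE.

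TAGLN (transgelin, also called SM22-alpha, an actin-binding protein used as an early smooth muscle marker, chromosome 11, 117199321 to 117204782, plus strand) had its peak in hDE. Its level was 25.7 and 30.6 CPM in hESC, 1979.5 and 1983 CPM in hDE, 673 and 326 CPM in hAFE, and 354 and 299.6 CPM in hPFE. It rose from hESC to hDE by 6.14 on the log2 scale (SE 0.378, adjusted p = 5.62e-05) and fell from hDE to hAFE by 1.99 (SE 0.312, adjusted p = 0.00286). The hPFE level stayed above hESC by 3.54 (SE 0.335, adjusted p = 0.000299), and the hAFE and hPFE libraries overlapped. In hDE, TAGLN was the most abundant of the 10 genes, at 694 and 721 TPM, and it made up 91.6% and 91.7% of the TPM of the 3 transgelins there, against 58.7% and 61.8% in hESC. PCSK7 overlaps TAGLN on the opposite strand with 331 to 623 counts per library, while TAGLN itself had 49625 counts over the 2 hDE libraries and 969 over those of hESC.

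CNN1 (calponin 1, an actin-binding protein of differentiated smooth muscle, chromosome 19, 11538717 to 11550323, plus strand) was highest on average in hDE as well. It measured 6.97 and 6.84 CPM in hESC, 72.6 and 51.2 CPM in hDE, 69.3 and 19.5 CPM in hAFE, and 31.3 and 13.5 CPM in hPFE. The rise from hESC to hDE was 3.16 on the log2 scale (SE 0.626, adjusted p = 0.00583) and was lost without the second hESC library (adjusted p = 0.0515). The hAFE libraries overlapped those of hDE and hPFE, with a log2 fold change from hDE to hAFE of -0.48 (SE 0.564, adjusted p = 0.557), which became a call without the first hAFE library (-1.67, adjusted p = 0.0378) and had a positive sign on log2(TPM + 1) (0.21). Both hPFE libraries lay above both hESC libraries, and the difference missed the threshold narrowly (1.70, SE 0.607, adjusted p = 0.0522), while it passed under 9 of 17 alternatives. Of calponin TPM, CNN1 was 2.09% and 2.32% in hESC and 12.6% and 9.33% in hDE, the rest being its widely expressed relatives CNN2 and CNN3.

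MYL9 (regulatory light chain of smooth muscle and non-muscle myosin, chromosome 20, 36541484 to 36551447, plus strand) was arranged by stage without overlap, from hDE through hAFE and hPFE down to hESC. Its level was 18.6 and 19.3 CPM in hESC, 218 and 202 CPM in hDE, 165 and 100.5 CPM in hAFE, and 66.3 and 40.4 CPM in hPFE. MYL9 rose from hESC to hDE by 3.47 on the log2 scale (SE 0.309, adjusted p = 0.000198) and was higher in hPFE than in hESC by 1.49 (SE 0.291, adjusted p = 0.00523). The hAFE against hDE value of -0.66 did not pass (SE 0.279, adjusted p = 0.114), but it passed without a count filter (adjusted p = 0.00444) and without the first hAFE library (-1.06, adjusted p = 0.0298), and on log2(TPM + 1) its sign was positive (0.15). From hAFE to hPFE the log2 fold change was -1.32 (SE 0.285), with no test. MYL9 made up 12.8% and 12.1% of the TPM of MYL9, MYL12A, MYL12B and MYL7 in hDE, 19.8% and 16.2% in hAFE, and 9.46% and 5.08% in hPFE. MYL7, the atrial regulatory light chain, took 0.235% and 0.0819% of that sum in hESC and 42.8% and 41.3% in hDE.

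TPM1 (alpha-tropomyosin, which lies along the actin filament, chromosome 15, 63042632 to 63071915, plus strand) was the most abundant of the 10 genes by mean TPM in every stage except hDE. It stood at 210.2 and 222 CPM in hESC, 624 and 534 CPM in hDE, 1016 and 826 CPM in hAFE, and 1005 and 837 CPM in hPFE. TPM1 rose from hESC to hDE by 1.42 on the log2 scale (SE 0.171, adjusted p = 0.000691) and from hDE to hAFE by 0.67 (SE 0.168, adjusted p = 0.0205), and the hAFE and hPFE libraries overlapped. The second of these calls was lost without the first hAFE library (adjusted p = 0.0918), without the first hDE library (0.0646) and without the second (0.141). In hPFE it was above hESC by 2.09 (SE 0.174, adjusted p = 0.00019). Its share of the TPM of the 4 tropomyosin genes was 31.1% and 29.3% in hDE and 49.4% and 50.2% in hAFE, while TPM3, the slow-muscle and cytoplasmic isoform gene, went from 38.4% and 40.9% in hESC to 11.4% and 16.7% in hPFE. The tables are per gene, so muscle and non-muscle splice forms of TPM1 were not separated.

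TPM2 (beta-tropomyosin, chromosome 9, 35681992 to 35690121, minus strand) was high only in the 2 middle stages. Its level was 55.2 and 63.2 CPM in hESC, 163 and 162 CPM in hDE, 185 and 139.9 CPM in hAFE, and 81.1 and 39.2 CPM in hPFE. It rose from hESC to hDE by 1.46 on the log2 scale (SE 0.312, adjusted p = 0.00824), which did not pass when the first hESC library was left out (adjusted p = 0.0668). The hAFE and hDE libraries overlapped in CPM (log2 fold change 0.00, SE 0.304, adjusted p = 1), while on log2(TPM + 1), where the median of all genes also moved by 0.50, limma gave a rise of 0.88 (adjusted p = 0.024). The hPFE libraries lay below both hAFE libraries (log2 fold change -1.43, SE 0.311, no test) and on either side of those of hESC (0.02, SE 0.307, adjusted p = 0.957).

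DES (desmin, the intermediate filament of muscle cells, chromosome 2, 219418377 to 219426739, plus strand) was near the detection limit throughout. It had 20 and 20 counts in hESC, 2 and 5 in hDE, 0 and 1 in hAFE, and 7 and 1 in hPFE, or 1.2 and 1.13 CPM in hESC and at most 0.425 CPM in any later library. Both hESC libraries were above all others. Since DES passed the filter only through that hESC level, its log2 fold changes against hESC, -2.04 in hDE and -2.14 in hPFE, are a description with no test. The ratio of hPFE to hAFE rested on 8 against 1 counts and was 7.60 (exact 95% interval 1.02 to 337, counting error only). The ratio of hAFE to hDE was 0.124 (0.00276 to 0.967) from 1 against 7 counts.

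Taking the comparisons in order, hDE against hESC was a broad rise of the contractile set. ACTA1, ACTC1, TAGLN, CNN1, MYL9, TPM1 and TPM2 rose, by 1.42 to 6.14 on the log2 scale. That is 7 of 10 genes, while 20.3% of all 17446 genes were called higher. ACTA2 and DES had values below 0, DES as a description only. The median log2 fold change was 1.81 for the 10 genes and -0.01 for all genes. With any single library left out, 6 to 8 of the 10 were called higher.

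From hDE to hAFE the genes went separate ways. ACTA2 and TPM1 rose and TAGLN fell, and the other 6 of the 9 genes tested did not pass. Of all genes 15% were called higher and 15.2% lower, so 2 of 9 and 1 of 9 were close to the background. ACTA1, not tested here, was 4.49 times higher. The median log2 fold change of the 10 genes was 0.23, against 0.01 for all genes. This comparison sets re-analysed libraries against ones without that mark, and stage and that mark cannot be told apart. The number called higher was 4 with limma on log2(TPM + 1), and without single libraries it was 1 (the first hAFE library or either hDE library) or 2; the number called lower was 3 without the first hAFE library.

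From hAFE to hPFE, the contrast the set was drawn up on, the relatives of ACTA1 did not share the size of its difference. ACTA1, MYL9 and TPM2 were lower in both hPFE libraries than in both hAFE libraries, with log2 fold changes of -4.81, -1.32 and -1.43, and the other 7 genes overlapped, where 49.8% of all genes did not. These 3 of 10 include ACTA1, which chose the set, so nothing is read from the count; of all genes 6.68% were at least 2 times lower and 26.6% had hPFE libraries wholly below those of hAFE. DES was the 1 gene at least 2 times higher, on 8 counts, against 11.3% of all genes. The fitted values of the rest were -0.98 for CNN1, -0.91 for ACTA2, -0.61 for TAGLN, -0.06 for ACTC1, -0.00 for TPM1 and 0.34 for ACTG2; on log2(TPM + 1) the values of ACTC1 and TPM1 were positive (0.18 and 0.19). Single libraries moved several of them: without the first hPFE library ACTA2 was at -2.41 and ACTG2 at -1.65 and 6 of 10 genes were at least 2 times lower, without the second hAFE library 5 of 10 were, and without the first hAFE library CNN1 was at 0.20.

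Over the whole course, hPFE against hESC, ACTA2, ACTC1, ACTG2, TAGLN, MYL9 and TPM1 were higher, by 1.49 to 5.17 on the log2 scale, and TPM2 and CNN1 did not pass. DES, described only, was lower. That is 6 of the 9 genes other than ACTA1, with DES counted among the 9, against 21.6% of all genes called higher. The median log2 fold change of the 10 genes was 2.19, against 0.02 for all genes. The mark differs here too and cannot be told apart from stage. The 4 comparisons share libraries, so their values for a gene are not independent of each other.

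**Figure D3:**
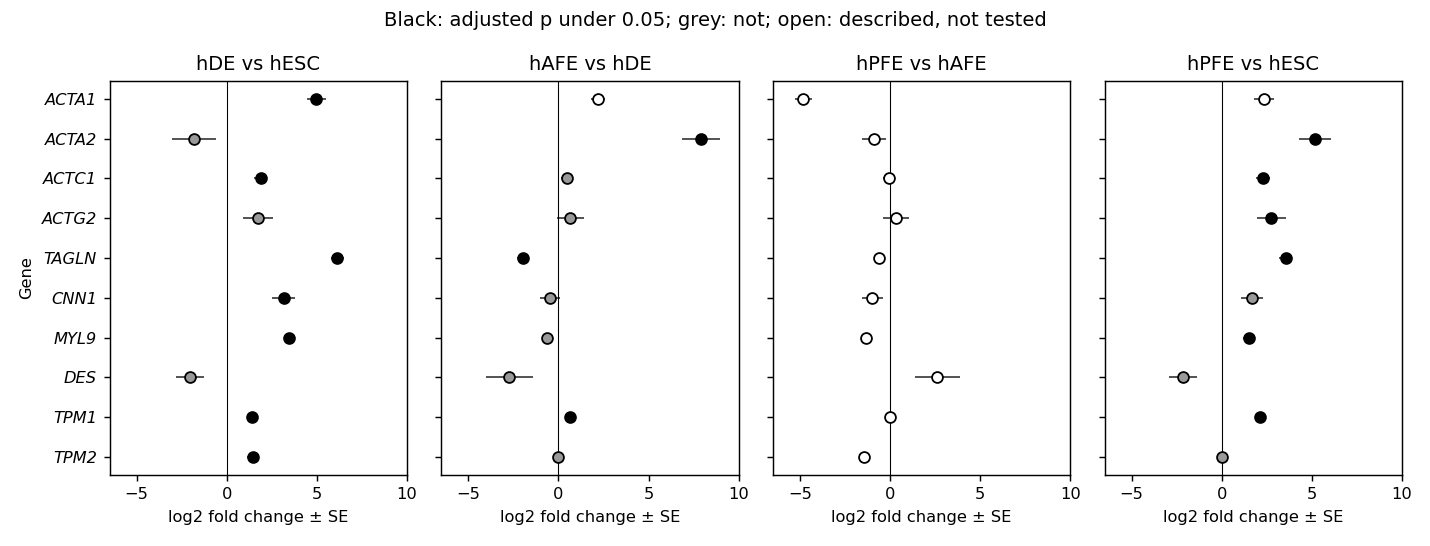
Log2 fold change with its SE for each of the 10 genes in the 4 comparisons; black points passed edgeR's test at an adjusted p of 0.05, grey points did not, and open points are described with no test, as is DES against hESC, drawn in grey. From hESC to hDE 7 genes lie above 0 and pass, whereas from hAFE to hPFE the ACTA1 value of -4.81 lies apart from the others.

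Other genes of the contractile apparatus and its regulators were read from 7 lists with 119 genes outside the 10, of which 93 passed the filter. In hDE against hESC 38 were called higher and 15 lower (57.0% in either direction, against 41.9% of all genes, 20.3% higher and 21.6% lower), in hAFE against hDE 13 and 20 (35.5% against 30.2%), in hPFE against hAFE 7 and 6 (13.98% against 7.49%, with 4.77% of all genes higher and 2.71% lower), and in hPFE against hESC 40 and 13 (57.0% against 45%, of which 23.3% lower). The counts from hAFE to hPFE depended on the fit: they were 23 in all with DESeq2 and 0 with only the 4 libraries compared.

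Of the 16 genes of the cardiac sarcomere list, 8 did not pass the filter and 7 had no count in hDE. Of the 8 that passed, 5 rose and 2 fell from hESC to hDE. MYL7 went from 0.300 and 0.113 CPM to 196 and 177 CPM (log2 fold change 9.78, SE 0.818, adjusted p = 0.000154) and then to 23.4 and 23.1 CPM in hAFE (-3.01, adjusted p = 0.00427). MYL4, the atrial essential light chain, rose as well, from 0 and 0.0565 CPM to 14.6 and 6.52 CPM (adjusted p = 0.00405), as did NEBL, a Z-disc protein (3.11, adjusted p = 0.00452), and TNNC1, the cardiac and slow-muscle troponin C (2.97, adjusted p = 0.00335). TNNT2, cardiac troponin T, fell (-2.42, adjusted p = 0.00969) and stood at no more than 4.97 CPM in any library. So MYL7 and MYL4 rose beside ACTC1 while troponin T did not.

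Of the 14 measured skeletal sarcomere genes, 1 rose and 5 fell from hESC to hDE. Some of the 5, MYH2 among them, passed the filter only through their hESC level, so the count that fell is a description. The 1 that rose was TTN, the giant elastic protein titin, at 36.3 and 40.5 CPM in hESC, 4612 and 3294 CPM in hDE (6.68, SE 1.05, adjusted p = 0.00223), 171 and 49.4 CPM in hAFE, and 66.2 and 8.30 CPM in hPFE. TTN shares its locus with opposite-strand transcripts, of which TTN-AS1 had 192 to 622 counts per library, fewest in the first hDE library, and with CCDC141 on the same strand, which had 7744 and 7990 counts in hDE and at most 281 in any other library. TNNT1, slow troponin T, fell from hDE to hAFE (-1.96, adjusted p = 0.0157), and TPM3 fell as well (-0.99, adjusted p = 0.00274). MYH2, a fast myosin heavy chain, was at 5.11 and 5.14 CPM in hESC and had no count in hDE or hPFE.

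Smooth muscle genes outside the 10 were mixed. Of 18, 8 rose and 4 fell from hESC to hDE and 5 rose and 2 fell from hDE to hAFE. LMOD1, a smooth muscle leiomodin that seeds actin filaments, rose from hDE to hAFE as ACTA2 did: it was at 0.801 and 0.652 CPM in hDE and 45.5 and 20.2 CPM in hAFE (5.49, SE 0.606, adjusted p = 0.000668). MYH11, the smooth muscle myosin heavy chain, rose between the same stages (4.75, adjusted p = 0.0117) but reached no more than 3.80 CPM. FLNA, an actin cross-linker, rose in hDE (1.14, adjusted p = 0.00433), and CNN2 rose there (0.97, adjusted p = 0.00617) and fell in hAFE (-0.66, adjusted p = 0.0367). CNN3 passed in none of the 4 comparisons. SYNPO2, an actin-bundling protein, went from 1.06 and 0.439 CPM in hAFE to 34.7 and 8.44 CPM in hPFE (4.82, SE 0.763, adjusted p = 0.0133), the direction opposite to ACTA1.

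Among 19 cytoplasmic actin and myosin genes 9 rose and 1 fell from hESC to hDE. ACTB rose by 0.63 (adjusted p = 0.0259) and passed in none of the 3 other comparisons. TMSB10 and TMSB4X, small proteins that hold actin monomers, fell from hDE to hAFE by 0.95 and 0.93 (adjusted p = 0.00617 and 0.00163), and TMSB4X rose again by 1.3 in hPFE (adjusted p = 0.00308). MYH14, a non-muscle myosin heavy chain, rose from hAFE to hPFE by 3.28 (adjusted p = 0.0077).

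The regulators of the set moved with hDE. Of 9 measured genes of the SRF and myocardin list, 7 rose from hESC to hDE. MYOCD, the SRF cofactor of heart and smooth muscle, went from 1.5 and 1.7 CPM to 132 and 89.2 CPM (6.11, SE 1.1, adjusted p = 0.00396), and fell to 0.925 and 18.8 CPM in hAFE (-3.50, adjusted p = 0.0258), where its replicates were far apart. SRF itself rose in hDE by 1.16 (adjusted p = 0.0167) and fell from hAFE to hPFE by 1.36 (adjusted p = 0.0373), from 124 and 58.4 CPM to 35.6 and 35.4 CPM. That fall was not called with only the 4 libraries compared. In TPM, SRF stood at 18.25 and 8.21 in hAFE and at 5.06 and 7.41 in hPFE. TEAD1, WWTR1 (TAZ) and YAP1, a DNA-binding factor and 2 cofactors that act with it, rose in hDE by 1.38, 1.53 and 0.64 (adjusted p = 0.00162, 0.000688 and 0.0288). Whether these changes bear on the 10 genes was not tested.

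Of 14 response genes of SRF and YAP, 7 rose and 2 fell from hESC to hDE. ANKRD1, a cardiac ankyrin repeat protein and YAP target, went from 0.841 and 2.04 CPM to 444 and 289.8 CPM (7.98, SE 0.515, adjusted p = 6.38e-05) and was at 263 and 147 CPM in hAFE and 359.7 and 447 CPM in hPFE, with no later step passing. VCL, which links actin to adhesion sites, rose by 1.07 in hDE and fell by 1.5 in hAFE (adjusted p = 0.00443 and 0.00145). AMOTL2, a junction protein that binds YAP, rose by 3.71 in hDE (adjusted p = 0.000118). Of 12 measured muscle regulators, 2 rose and 1 fell in hDE and 5 rose and 2 fell in hAFE. Of all genes 20.3% were called higher and 21.6% lower in hDE, and 15% and 15.2% in hAFE. Some of the regulators, GATA4 among them, passed the filter only through the stage where they were high, so these counts are a description. GATA4, a factor of endoderm and heart, passed the filter only through its hDE level. Its rise by 9.68 and later fall by 6.84 are a description with no test. ISL1, a factor of second heart field and pharynx, rose by 6.49 in hAFE (adjusted p = 0.00611). MEF2A was higher in hPFE than in hESC (0.92, adjusted p = 0.00317).

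**Figure D4:**
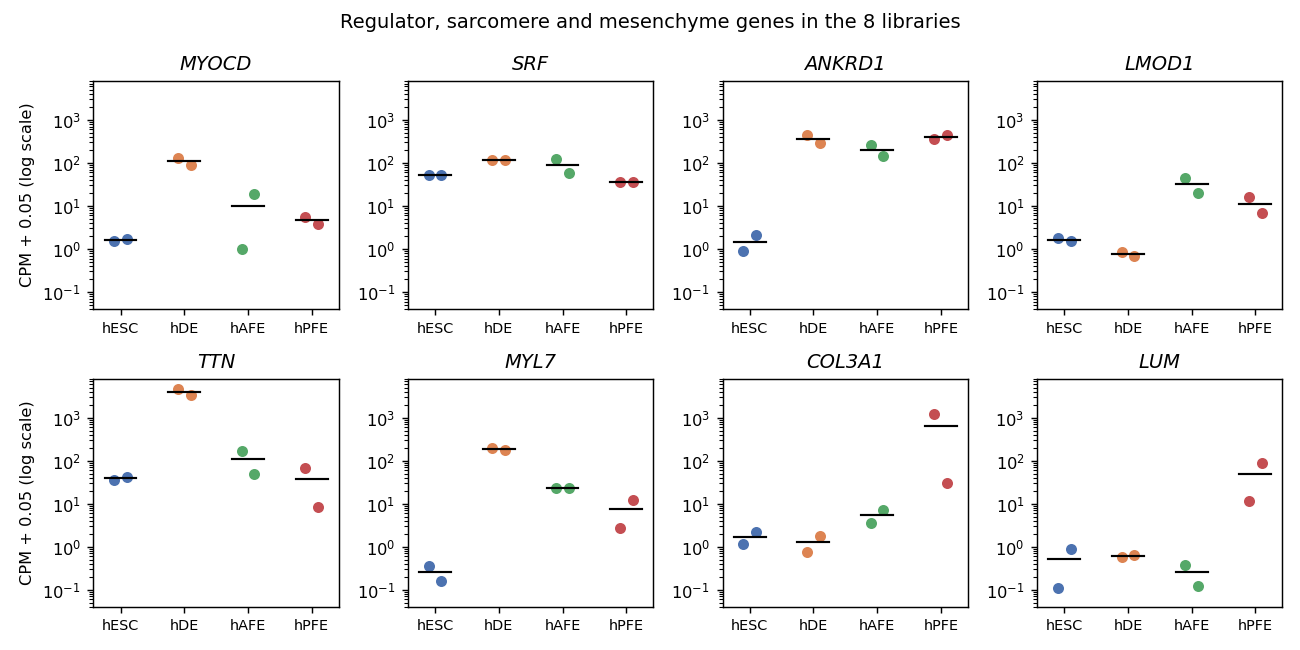
Level in CPM on a log axis, 1 point per library by stage, of MYOCD, SRF, ANKRD1, LMOD1, TTN, MYL7, COL3A1 and LUM, with a small constant added. MYOCD, TTN and MYL7 are highest in hDE, LMOD1 in hAFE, and the collagen gene COL3A1 stands at 1232 CPM in the first hPFE library and 29.7 CPM in the second.

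Promoter windows of the 4 muscle actins are shown because the CArG box is the element through which these genes are known to be read by SRF. Each holds the 250 bases before a RefSeq gene start on GRCh38.p14, 5′ to 3′ on the gene's strand, and capitals mark a CArG box, searched as 2 C, then 6 bases that are A or T, then 2 G, on both strands. The windows are, for ACTA1, chr1:229434095-229434344 (minus); for ACTC1, chr15:34795550-34795799 (minus); for ACTG2, chr2:73892758-73893007 (plus); and for ACTA2, chr10:88952774-88953023 (minus).
ACTA1: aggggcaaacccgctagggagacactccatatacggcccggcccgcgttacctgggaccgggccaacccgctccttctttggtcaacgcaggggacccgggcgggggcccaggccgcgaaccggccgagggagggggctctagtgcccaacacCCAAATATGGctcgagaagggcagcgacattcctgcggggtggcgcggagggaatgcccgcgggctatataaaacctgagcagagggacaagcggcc
ACTC1: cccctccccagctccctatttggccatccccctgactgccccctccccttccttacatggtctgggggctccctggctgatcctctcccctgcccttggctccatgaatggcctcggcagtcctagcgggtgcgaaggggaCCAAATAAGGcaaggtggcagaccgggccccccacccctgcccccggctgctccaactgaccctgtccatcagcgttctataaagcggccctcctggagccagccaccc
ACTG2: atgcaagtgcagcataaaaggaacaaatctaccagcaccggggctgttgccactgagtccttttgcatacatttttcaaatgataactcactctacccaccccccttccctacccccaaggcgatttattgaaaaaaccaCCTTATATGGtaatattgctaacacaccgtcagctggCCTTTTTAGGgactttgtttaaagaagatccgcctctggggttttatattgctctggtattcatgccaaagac
ACTA2: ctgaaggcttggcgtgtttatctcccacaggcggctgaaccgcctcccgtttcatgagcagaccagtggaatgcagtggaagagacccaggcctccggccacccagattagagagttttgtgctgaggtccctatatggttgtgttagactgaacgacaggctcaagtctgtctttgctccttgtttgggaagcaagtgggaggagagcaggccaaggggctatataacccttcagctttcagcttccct
The ACTA1 box began 97 bases before the start, the ACTC1 box 109 bases, and the ACTG2 boxes 110 and 73 bases. No box of this exact form was found in the ACTA2 window, nor in the windows of CNN1, TPM1 and TPM2 or in the other windows of ACTA2 and ACTC1. Stretches with 1 other base were not counted in any window. Examples are ccctatatgg and ccttgtttgg in the ACTA2 window, and ccatatacgg and ccttctttgg in the ACTA1 window. The ACTC1 window shown holds ccctatttgg, ccttacatgg and ccatgaatgg. The windows are not ranked by such stretches. The absence of an exact match therefore does not mean that the ACTA2 window lacks a CArG-like element. Over all 35116 windows of this length 407 (1.16%) held at least 1 such box and 11 (0.0313%) held 2 or more. CATTCC, the core of the element bound by TEAD factors, was found on either strand 2 times for ACTA1, once in the ACTA2 window shown and once in another ACTC1 window (chr15:34794118-34794367), against 11.9% of all windows with at least 1. RefSeq windows were matched for 7 of the 10 genes. Those of TAGLN, MYL9 and DES are named only. A match is a description of letters, not a binding site.

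Markers of other cell types were read beside the late stages, where ACTA2 and ACTG2 replicates differed. The 13 mesenchyme and fibroblast markers summed to between 106 and 274 CPM in the hAFE libraries and between 795 and 2672 CPM in hPFE. In hPFE 11 of 13 had a mean of at least 1 CPM and none was at 0. Of the 9 that passed the filter, 6 rose from hAFE to hPFE, where 4.77% of all genes were called higher. LUM and POSTN passed only through their hPFE level, so any rise of theirs is a description with no test. The count of 6 is a description for the same reason. Calls in this contrast also depended on the fit, with 1306 of all genes called but 52 with only the 4 libraries compared. COL3A1, a fibrillar collagen, was at 1232 CPM in the first hPFE library, where ACTA2 was 126 CPM, and at 29.7 CPM in the second, where ACTA2 was 27.1 CPM. LUM, lumican, went the other way, with 11.4 and 87.4 CPM, and VIM, vimentin, had 1125 and 524 CPM. In hDE, where TAGLN was highest, the 13 markers summed to between 516 and 591 CPM, of which VIM was 481 and 558 CPM, and PRRX1, DCN and POSTN were at 0. In hESC they summed to between 509.7 and 510.1 CPM, of which THY1, also a stem cell surface antigen, was 304 CPM on average. The part of these markers in the levels of the 10 genes was not tested.

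The 10 cardiac mesoderm markers summed to between 3.38 and 3.84 CPM in hDE, 10.8 and 26 CPM in hAFE, and 15.9 and 76.3 CPM in hPFE. In hDE 2 of 10 (TBX5 and MYH6) were at 0, in hAFE 2 (TBX5 and HAND1), and in hPFE 1 (MESP1). HAND2 had 38.8 CPM in the first hPFE library and 0.794 CPM in the second, and NKX2-5 had 18.7 and 3.03 CPM. In CPM the first hPFE library was thus the higher one for COL3A1, HAND2 and NKX2-5, as it was for every gene of the 10 except ACTA1. For the 10 genes this depended on the unit. In TPM the second hPFE library was the higher one for TAGLN (229 and 278), TPM1 (395 and 497) and ACTC1 (28.29 and 28.47) too. The first hPFE library was the lower one for HCN4, with 1.88 and 4.04 CPM, and for LUM. The 8 smooth muscle markers, of which CNN1, ACTG2 and DES are among the 10 genes, summed to 21.0 to 24.7 CPM in hESC, 145 to 209.5 CPM in hDE, 66.3 to 125 CPM in hAFE, and 34.2 to 96.7 CPM in hPFE, with none at 0 at any stage. The 8 skeletal muscle markers summed to no more than 2.88 CPM in any library. MYF5 was at 0 at every stage, and MYOD1, MYOG and CKM did not exceed 0.0366 CPM in any stage mean, including hAFE, where ACTA1 was highest. PAX7, the muscle progenitor factor, had no count in hAFE, and MYH3, the embryonic myosin, had 1.59 and 1.39 CPM there.

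Ranked by mean TPM, the 10 genes changed places between stages. In hESC the order was TPM1 (64.9 and 74.6 TPM), TPM2, TAGLN, MYL9, ACTC1, CNN1 and ACTA2, each apart from the next, and then DES, ACTA1 and ACTG2, whose libraries overlapped. In hDE TAGLN came first, then TPM1 (144 and 128 TPM), TPM2 and MYL9, all apart, followed by CNN1, ACTC1 and ACTA1, which overlapped in that order. In hAFE TPM1 and TAGLN overlapped at the top (452 and 332 TPM against 451 and 206 TPM), and TPM2, ACTA2, ACTA1 and MYL9 overlapped as neighbours below them. ACTA1 stood at 61.6 and 46.0 TPM there, at rank 5 of the 10. In hPFE TPM1 (395 and 497 TPM) led TAGLN without overlap, and ACTA1 had rank 8 at 1.52 and 3.48 TPM, overlapping with ACTG2.

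Across the 8 libraries the profiles in log2 CPM of TAGLN and MYL9 had a Pearson correlation of 0.96, those of CNN1 and MYL9 0.96, those of ACTC1 and TPM1 0.97, those of ACTA1 and ACTA2 0.35, and those of ACTA2 and TAGLN -0.02. These are descriptions over 8 libraries of 4 stages, which share their stages and depths. Of 12862 genes with a stage mean of at least 5 CPM, the 5 with the profile most like that of ACTA1 were ZBTB49 (r = 0.984), GZF1 (0.975), ZSCAN29 (0.973), TSPYL2 (0.973) and MAML1 (0.969). Their range was far narrower than that of ACTA1: ZBTB49 had means of 3.78, 5.71, 7.35 and 4.66 CPM in hESC, hDE, hAFE and hPFE. The 5 most like ACTA2 were LSAMP (0.985), ANTXR2 (0.984), AHDC1 (0.984), the pseudogene EGFEM1P (0.984) and BCL2 (0.983). LSAMP had means of 7.06, 2.85, 45.3 and 40.6 CPM over the 4 stages.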

How the data were processed

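Total RNA of H1 cells was depleted of ribosomal RNA and sequenced paired-end from libraries that keep strand through dUTP, per the labels' protocols. With the aligner not given in the sources used here, RSEM, DESeq2 and hg38 are known from the submitters' processing notes, and the columns are those of RSEM gene tables, per the file headers. The expected counts that the authors deposited are estimated counts: a read with several possible genes is divided among these, so values need not be whole. The authors' deposited TPM values are shares of transcripts corrected for effective length. The deposited posterior means and standard deviations of the counts, other columns per the file headers, gave an alternative and a measure of ambiguity.

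Symbols and positions were taken from GENCODE 29, which held all 58780 gene identifiers; a further 746 entries had 0 counts. Rounded expected counts were filtered with filterByExpr. A single model with 4 stage terms over the 8 libraries, leaving 4 residual degrees of freedom, was fitted in R 4.3.3 by the quasi-likelihood method of edgeR 4.0.16 with TMM scaling, and p was adjusted by Benjamini-Hochberg over 17446 genes. The shared spread assumes that stages vary alike, which they did not. Among genes with a mean of at least 10 CPM, the median replicate difference was 0.129 log2 units in hESC and 0.137 in hDE. It was 0.199 in hAFE and 0.278 in hPFE, so p from comparisons with the late stages may be too low. From hAFE to hPFE 1306 genes were called, but 52 with only the 4 libraries compared. In a test on simulated data (hDE against hESC, 13159 genes, 200 of them altered) the step recovered 59% of the 2-fold and 99% of the 4-fold alterations, and 4 of its 162 calls were false. The simulated libraries were all drawn around the hESC means with the same spread for every gene and stage. These rates therefore do not carry over to comparisons with the more variable late stages. Libraries held 12687161 to 17802900 counts, and the 3 counts per stage that a total of 0 allows correspond to 0.0874 to 0.12 CPM. Intervals cover counting error only.

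The 10 genes and the gene lists were chosen with earlier results of these data known. Genes named from each list are the 3 of highest mean TPM and the 2 with the largest called change among those with at least 5 CPM in the higher stage; 1 gene that this rule takes is not reported here. MYH11, PRRX1, DCN, POSTN, TBX5, HAND1, HCN4, MYH6, MESP1, MYF5, MYOD1, MYOG and CKM were named in addition, after their values were seen. So were PAX9, TBX1, SOX2 and FOXA2, which were read beside the stage labels, and the overlapping genes. Alternatives were DESeq2 1.42.0, which was given every gene with a count and so also lacks the filter, limma 3.58.1 on log2(TPM + 1), which changes tool and unit together, RLE scaling, 2 other filters (none, or 1 CPM in at least 2 libraries), a fit of only the 4 libraries compared, the replicate number as a block, posterior mean counts, the removal of small structural and mitochondrial genes, and the removal of each library in turn. When a library is removed, the lone one of its stage is assumed to vary like the others.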

Additional observations from a re-analysis of the deposited data

How the results depend on the processing

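Of 475 tested values of the 10 genes under 17 alternatives, 427 kept direction and call, 11 lost the call, 26 gained it and 11 changed sign, with no call on either side. The sign changed in hAFE against hDE on log2(TPM + 1) for CNN1 (0.21) and MYL9 (0.15), and for TPM2, reported as 0.00, with only the 4 libraries compared (-0.0039), the replicate block (-0.0203) and without small structural and mitochondrial genes (-0.0129); in hPFE against hESC it changed for TPM2 with the replicate block (-0.0394). With single libraries left out CNN1 lay between -1.67 and 0.17 and TPM2 between -0.22 and 0.19 in hAFE against hDE, and TPM2 between -0.60 and 0.44 in hPFE against hESC. The number called higher was 6 to 8 (7 as reported) in hDE against hESC and 5 to 7 (6) in hPFE against hESC with single libraries left out. In hAFE against hDE it was 4 (2 as reported) with limma on log2(TPM + 1) and 1 to 2 with libraries left out, and the number lower was 2 (1) without a filter and 1 to 3 with libraries left out. The number called lower against hESC, 0 with edgeR, counts DES, whose test is conditioned on its hESC level, and was 2 (DES and ACTA2) in hDE without a filter, 2 with only the 4 libraries compared and 0 to 1 with libraries left out, and in hPFE 1 without a filter, 1 with posterior mean counts and 0 to 1 with libraries left out. From hAFE to hPFE the number at least 2 times higher (1) was 0 with limma on log2(TPM + 1), 0 with only the 4 libraries compared and 0 to 2 with libraries left out, and the number at least 2 times lower (3) was 3 to 6. Genes called in the other contractile lists were, in hDE against hESC (53), 30 with limma and 34 to 59 with libraries left out; in hAFE against hDE (33), 52 without a filter and 13 to 38; in hPFE against hAFE (13), 23 with DESeq2, 7 with limma, 42 without a filter, 0 with only the 4 libraries compared and 6 to 24; and in hPFE against hESC (53), 32 to 65. The lowest of these counts came without the second hDE library (13), the second hESC library (34), and either hESC library (6 and 32). The cause was not tested. On log2(TPM + 1) the median of all genes moved by -0.27, 0.50, 0.14 and 0.36 in the 4 comparisons. The replicate numbers did not pair the libraries: the correlations of deviations were -0.0356, 0.0607, 0.03 and 0.0573. With the replicate block CNN1 passed in hPFE against hESC (1.54, adjusted p = 0.0214 with edgeR); it changed no other call of the 10 genes. Depth limits DES most, with 0 to 20 counts per library. Its values against hESC, described only, are counted among the 475.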
